A study of Mus musculus with 6 samples.

Results

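Ubiquitin ligases, deubiquitinases and their partner proteins were followed in RNA recovered with METTL3 from mouse natural killer (NK) cells. Genes were taken by name (Usp, Otud, Herc, Hectd, Huwe1, Hace1, Ubr, Ube, Ubap, Trim, Rnf, Fbx, Cul, Birc, Mycbp2, Nedd4, Itch, Smurf, Wwp, Trip12, Cblb, Cyld, Mib, Klhl, Kbtbd and Dcaf families). The naming rule uses no measured values, but it was set with earlier results of these data known. The table itself was limited by measured values, as described below, and 78 of its 2652 genes were members. METTL3 is the enzyme that writes N6-methyladenosine (m6A) into messenger RNA, and in METTL3-RIP-seq an antibody against it pulls down the protein together with bound RNA, which is then sequenced. All libraries came from splenic NK cells of WT C57BL/6 mice, which had been expanded in vivo by hydrodynamic injection of an IL-15 plasmid (pLIVE-IL-15) and were sorted 1 month later. There were 3 METTL3-RIP libraries, made with an anti-Mettl3 antibody, and 3 input libraries, made from the part of the lysate set aside before immunoprecipitation, with no mock immunoprecipitation analysed here. The number of mice behind a library is not given in the sources used here, so p-values measure the spread between these libraries, which may be technical.

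Ubiquitin is attached to proteins by a relay of E1 activating, E2 conjugating and E3 ligase enzymes, and it is removed by deubiquitinases. HECT ligases take ubiquitin onto themselves before passing it on, RING ligases bring the loaded E2 to the substrate, and cullin ligases are built from a scaffold, a RING subunit and exchangeable adaptors such as F-box and BTB-Kelch proteins. In lymphocytes this system sets the strength of NF-kB and cytokine receptor signalling and the lifetime of many regulators. Sorted by name, the members comprised 18 deubiquitinases (Usp and Otud genes), 9 HECT ligases, 5 UBR ligases, 22 genes of RING families, 22 cullins and substrate adaptors, the E2 enzyme Ube2o and the ubiquitin-associated protein Ubap2. The names are not exact. Usp18 removes the ubiquitin-like protein ISG15, Usp6nl is a GTPase-activating protein for Rab proteins, and Birc6, placed with the RING families by its name, joins a ubiquitin-conjugating domain to its ligase activity.

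The table holds only genes that its authors listed as higher in METTL3-RIP than in input, so the direction of each difference was fixed by that choice and is not a finding about the members. Levels are RPKM, the reads of a gene per kilobase of exon and per 1000000 reads of the library. The library totals recovered from these values were 9401509 to 11809744 reads in METTL3-RIP and 14710607 to 15992386 reads in input. Of recovered read numbers from 1 to 100, 75.5% to 79.7% were even in the input libraries and 58.5% to 62.1% in the METTL3-RIP libraries. Such an excess of even numbers differed between the groups, and its part in the results was not tested. Of 26 markers of NK, T, B, myeloid and erythroid cells, 0 were in the table, so the cell type could not be checked. Their absence says only that they were not listed.

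A METTL3-RIP library gave 0.614% ± 0.0344 of its reads to the members, and an input library gave them 0.0397% ± 0.00474 (SD, n = 3 for both). Of reads that fell in listed genes, the members' share was 4.27% ± 0.120 after immunoprecipitation and 4.17% ± 0.0641 before it (SD, n = 3 for both). METTL3-RIP replicate 3 gave the lowest of the 3 values in 52 of the 78 members, and it did so in 59.3% of the table. All METTL3-RIP values lay above all input values in 78 of 78 members, against 99.8% of the table. With limma on log2(RPKM + 1), 78 of 78 members passed an adjusted p of 0.05 (Benjamini-Hochberg over all 2652 genes), against 99.9% of the table. With the replicate number as a block, all 78 passed as well, against 99.7% of the table. These shares sit at the background and say nothing particular about the members.

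Levels of the members were above those of the table as a whole, while their ratios were not. The median METTL3-RIP level was 5.35 RPKM over the members and 3.04 RPKM over the table, and 51 of 78 members lay above the table's median. The median difference on the log2(RPKM + 1) scale was 2.07 over the members and 1.72 over the table. It was 2.02, 2.19 and 2.002 in pairs 1, 2 and 3 of libraries that carry the same number. As a ratio of the mean METTL3-RIP to the mean input level, which has no pseudocount, the median was 12.3 over 77 members and 14.4 over 2487 genes of the table. On the log2 scale of limma-voom, fitted to recovered reads, the members' median was 3.65 and the table's 3.89. The order of the members and the table thus flipped with the scale, and the log2(RPKM + 1) scale by construction understates the change of genes with low levels. The gaps were smaller against the 1826 other listed genes annotated as protein-coding. Their medians were 3.35 RPKM, 1.79 on the log2(RPKM + 1) scale, a ratio of 13.2 and 3.74 in limma-voom. Members lay between 9.28-fold and 37.99-fold, and the smallest ratio in the whole table was 9.14.

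**Figure D1:**
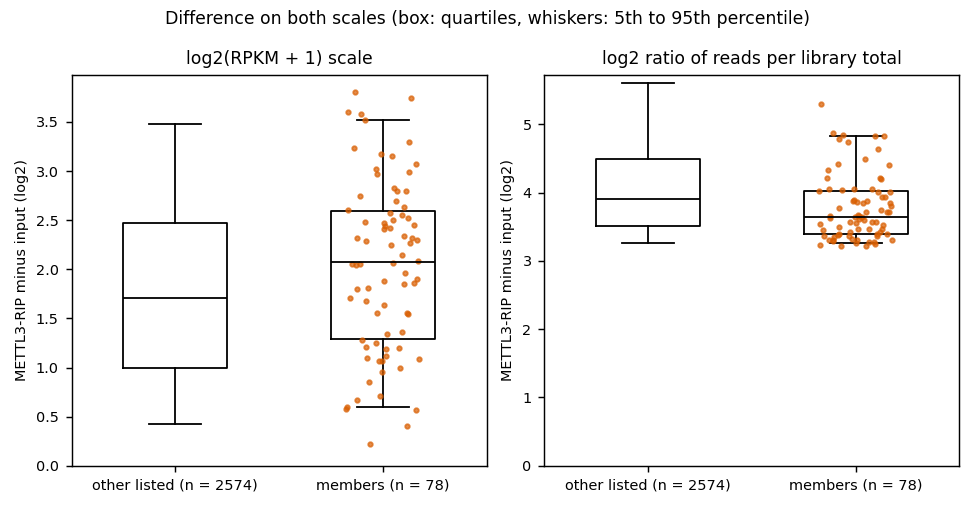
Differences between METTL3-RIP and input on the log2(RPKM + 1) scale (left) and as the log2 ratio of reads per library total from limma-voom (right), for 2574 other listed genes and 78 members (points). Boxes show the quartiles and the median, whiskers the 5th to 95th percentiles, and the members' median of 2.07 lies above the table's 1.72 on the left while their 3.65 lies below 3.89 on the right.

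METTL3 methylates adenosines in the sequence DRACH (D is A, G or U; R is A or G; H is A, C or U), and GGACT is its best known form in DNA letters. RIP-seq gene values do not locate a binding or methylation site, so the following windows of 25 bases show only where this motif lies nearest to the stop codon in members described below, with the motif in capitals. The sequences were read from the GENCODE M21 transcript sequences in the direction of the mRNA, along the longest coding transcript of each gene. Coordinates are those of GRCm38. They show 4 named members, from the HECT, deubiquitinase and RING classes, in which the motif lies within 200 nt of the stop codon.
Herc2: acagcagtgaGGACTcagataatga
Usp7: taaatttgaaGGACTttgagccaca
Birc2: acaatcaaggGGACTgtgcgcacat
Rnf40: gaaactcaggGGACTttgaacaccc
The Herc2 window is at chr7:56231053-56231077 on the plus strand, in the coding part of the last of 93 exons. In Usp7 the window spans chr16:8691151-8691175 on the minus strand, in the coding part of exon 31 of 32, and in Birc2 it spans chr9:7818761-7818785 on the minus strand, in the coding part of the last of 8 exons. The Rnf40 window (chr7:127602648-127602672, plus strand) lies in the 3′ untranslated region, with the motif starting 17 nt after the first base of the stop codon.

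Every one of the 77 members with a coding transcript held GGACT on the sense strand, at 1 to 25 copies and a median of 6. The motif was in 97.2% of the transcripts of other listed protein-coding genes and in 86.6% of those not listed, which are shorter. Median transcript lengths were 4791 nt in members, 4725 nt in other listed genes and 2426 nt in genes not listed. Per kilobase of transcript, all copies pooled, members had 1.21 copies, other listed genes 1.14 and genes not listed 1.07. The same letters reversed (TCAGG), read as a control of base composition, gave 1.43, 1.41 and 1.28 copies per kilobase in the same order. Both sequences were therefore somewhat denser in the members. In windows of 100 nt around the stop codon, the share of member transcripts with GGACT had a median of 10.4%, against 10.5% in other listed genes and 10.1% in genes not listed.

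**Figure D2:**
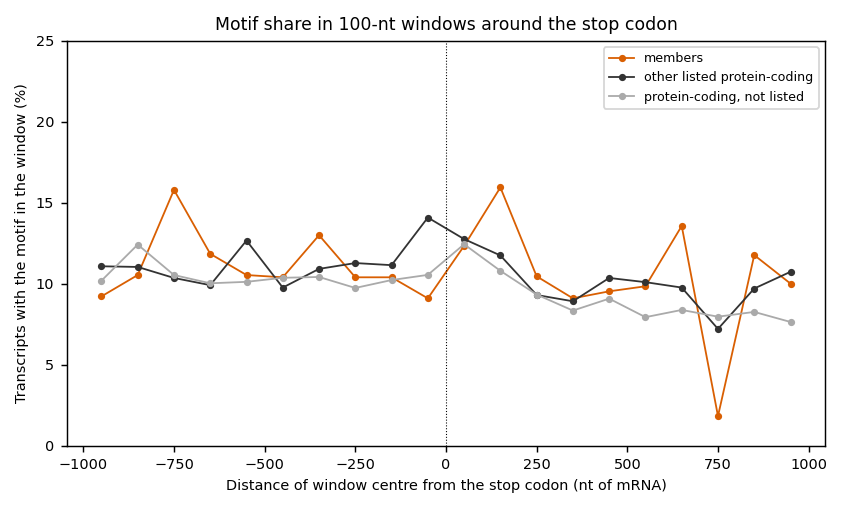
Share of transcripts with the motif in each 100-nt window (vertical axis, percent) by distance of the window's centre from the stop codon. The horizontal axis is in nt of mRNA, with negative values before the stop codon. Where the coding sequence is short, such windows can reach into the 5′ untranslated region. Member shares range from 1.82% to 15.9% over 50 to 77 transcripts a window, and the lines for other listed and for unlisted genes stay between 7.20% and 14.1%.

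The HECT ligases were led in read numbers by a giant enzyme. Huwe1, a very large ligase whose substrates include Mcl1 and p53 (chrX:151800807-151935417), had 23.1, 23.2 and 21.9 RPKM in METTL3-RIP replicates 1, 2 and 3, against 1.22, 1.12 and 0.876 RPKM in input replicates 1, 2 and 3. All values below follow this order of replicates. Adjusted p-values and separation of groups are given below for description only. Genes were listed for being higher in METTL3-RIP, and 99.9% of the table passed the threshold while 99.8% had separate groups. Huwe1 carried more reads than any other member, 16418 over the METTL3-RIP libraries and 1158 over the input libraries, and the groups were far apart (difference 3.52 ± 0.11 on the log2(RPKM + 1) scale, SE, limma adjusted p = 1.37e-07). Herc2, a giant ligase of the DNA damage response (chr7:56050196-56231800), had 17.4, 20.2 and 17.9 RPKM against 0.609, 0.680 and 0.601 RPKM. Its ratios within same-numbered pairs were close to each other, from 28.6 to 29.8, and its overall ratio of 29.4 was among the largest. Hace1, a ligase for the GTPase Rac1, had the lowest level of the HECT group, with 1.47, 1.34 and 1.34 RPKM against 0.143, 0.107 and 0.164 RPKM. Its groups did not overlap, and its ratio was 10.01 from 81 input reads. Over the 9 HECT ligases the median ratio was 17.6, the highest median of the classes with more than 1 gene, with a range of 10.01 to 29.4. That median is the ratio of Smurf1, which rests on 38 input reads and had pair ratios from 11.3 to 38.8. The next lower HECT ratio, 13.3 in Wwp2, lies below the deubiquitinases' median of 14.0, so the rank of the class is uncertain.

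UBR ligases recognize proteins through destabilizing residues at the N terminus, the N-degron pathway. Ubr2 had 24.3, 28.4 and 21.1 RPKM in METTL3-RIP and 1.77, 1.54 and 1.45 RPKM in input. Ubr4, the largest member protein with 5180 residues, had 23.2, 26.6 and 23.0 RPKM against 1.21, 1.03 and 0.476 RPKM. Input replicate 3 was the low one for Ubr4, and the ratio within pairs ran from 19.2 to 48.4 with an overall value of 26.8. Ubr1, the founding member of the family, was lower, with 5.12, 5.77 and 4.97 RPKM against 0.525, 0.424 and 0.598 RPKM. The Ubr2 level depends on the exon length behind it, and at its GENCODE M21 length the mean METTL3-RIP level would be 19.4 RPKM in place of 24.6. On the log2(RPKM + 1) scale, all 5 listed UBR ligases had a difference over the table's median, from 2.05 to 3.75, as did 50 of all 78 members. In limma-voom, only 2 of the 5 lay above the table's median, against 24 of the 78 members.

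Among the RING families, Rnf40 had the highest level. Rnf40 works with a partner to attach ubiquitin to histone H2B, and it had 24.7, 27.6 and 21.7 RPKM in METTL3-RIP against 2.65, 2.14 and 1.86 RPKM in input. A share of 13.6% of its exons overlaps genes on the other strand, so its reads are less certain. Mycbp2, a giant ligase known from axon growth, had 17.4, 17.6 and 15.9 RPKM against 0.993, 0.913 and 0.833 RPKM. Rnf213, an interferon-inducible giant with ATPase and ligase activity (chr11:119393100-119487418), had 16.9, 17.3 and 14.8 RPKM against 0.572, 0.455 and 0.262 RPKM. Its ratio of 37.99 was the largest of all members, with pair ratios from 29.5 to 56.5 and a log2 difference of 3.60 ± 0.12 (SE, limma adjusted p = 1.37e-07). The lowest level of the group was that of Rnf24, a small membrane RING protein, with 0.626, 0.841 and 0.772 RPKM against 0.0676, 0.00919 and 0.130 RPKM. The Rnf24 input values rest on 21 reads in all, and its ratio of 10.8 became 19.4 without input replicate 3.

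RING members of NF-kB and cell death pathways were present at middle levels. Birc2 (cIAP1) ubiquitinates components of TNF receptor complexes, and it had 11.4, 10.8 and 8.99 RPKM in METTL3-RIP against 0.975, 0.983 and 1.19 RPKM in input. Birc6, a giant inhibitor of apoptosis, had 12.7, 12.0 and 12.2 RPKM against 0.738, 0.521 and 0.500 RPKM. Rnf31 (HOIP) makes linear ubiquitin chains within a complex of several proteins, and it had 4.55, 4.99 and 4.43 RPKM against 0.462, 0.297 and 0.309 RPKM. Groups did not overlap in any of these, and the ratios were 9.94, 21.01 and 13.1 for Birc2, Birc6 and Rnf31. The log2 differences were 2.47 ± 0.11, 3.07 ± 0.10 and 2.06 ± 0.09 in the same order (SE, limma, largest adjusted p = 2.05e-07).

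Of 21 genes of the naming rule with known parts in lymphocyte or NF-kB signalling, 7 were listed, among them Birc2, Birc6, Rnf31, Usp18, Huwe1 and Mycbp2. The share listed was 17.4% over all protein-coding genes of the rule and 33.1% in its longest length class, and these 21 genes were chosen with earlier results of these data known, so nothing particular to them is read from the count. Cblb and Itch, ligases that restrain lymphocyte activation, were not listed, nor were Nedd4, Nedd4l, Birc3, Rnf128, Trim25, Trim28, Fbxw7 and Cul3 or the deubiquitinases Cyld, Otud5, Otud7b and Usp9x. No values of these genes were analysed here, and being unlisted says nothing of their level or of METTL3 binding.

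The deubiquitinases spanned a wide range of levels. Usp48, a largely nuclear ubiquitin-specific protease (chr4:137593755-137658537), had 27.8, 27.0 and 22.2 RPKM in METTL3-RIP against 2.31, 2.76 and 2.12 RPKM in input. Usp7, which stabilizes Mdm2 and p53, had 17.1, 17.1 and 15.5 RPKM against 2.16, 1.58 and 1.44 RPKM, and Otud4, an OTU-domain deubiquitinase, had 14.2, 12.4 and 12.7 RPKM against 0.519, 0.602 and 0.621 RPKM. The groups were far apart in all 3 genes, but the ratios differed, at 10.7 for Usp48, 9.60 for Usp7 and 22.6 for Otud4. Usp34, a giant deubiquitinase linked to Wnt signalling, had 12.3, 11.5 and 11.8 RPKM against 1.21, 1.47 and 1.15 RPKM. With 9.28 its ratio was the smallest of the members with at least 50 input reads, close to the lowest ratio of the table. Usp18, the ISG15 protease that dampens type I interferon receptor signalling, was the lowest of the group, with 0.457, 0.634 and 0.546 RPKM against 0, 0.0448 and 0.0487 RPKM. Its input level rests on 4 reads over 3 libraries. Over the 18 genes the median ratio was 14.0 and the median level 6.41 RPKM.

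Cullins and substrate adaptors had the lowest levels of the classes with more than 1 gene, with a median of 1.77 RPKM in METTL3-RIP. The F-box protein Fbxo11, the adaptor of a ligase for Bcl6, had 14.1, 14.99 and 13.3 RPKM against 1.58, 1.57 and 1.31 RPKM in input. The BTB-Kelch proteins, adaptors for Cul3, came next. Kbtbd11 had 13.0, 12.5 and 11.8 RPKM against 1.77, 1.09 and 1.10 RPKM, and Klhl11 had 6.67, 6.87 and 7.08 RPKM against 0.906, 0.523 and 0.455 RPKM. Fbxo11 and Kbtbd11 were among the members with the smallest ratios, 9.49 and 9.45, and in all 3 genes the groups did not overlap. Fbxo40, an F-box protein of muscle, had the lowest level of all members, 0.116, 0.189 and 0.184 RPKM, and was at 0 in every input library. Its METTL3-RIP values rest on 6, 10 and 12 reads, and, with 3 reads per input library taken as the limit that a count of 0 allows, the METTL3-RIP level was at least 4.58-fold higher. It had the largest adjusted p of the members (0.0017, limma). The scaffold proteins Cul4a, Cul7 and Cul9 were listed, at 5.28 ± 0.504, 0.548 ± 0.0745 and 0.920 ± 0.255 RPKM (SD, n = 3).

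The remaining genes of the rule were single. Ube2o, a large E2 enzyme with ligase activity that clears unassembled ribosomal proteins in maturing red cells, had 3.50, 3.80 and 3.15 RPKM in METTL3-RIP and 0.149, 0.0709 and 0.231 RPKM in input. Its input rests on 36 reads, and its pair ratios ran from 13.6 to 53.5. Ubap2, which carries a ubiquitin-associated domain, had 17.1, 19.1 and 17.4 RPKM against 1.68, 2.02 and 1.76 RPKM. Its ratio of 9.82 was near the lower end of the table.

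**Figure D3:**
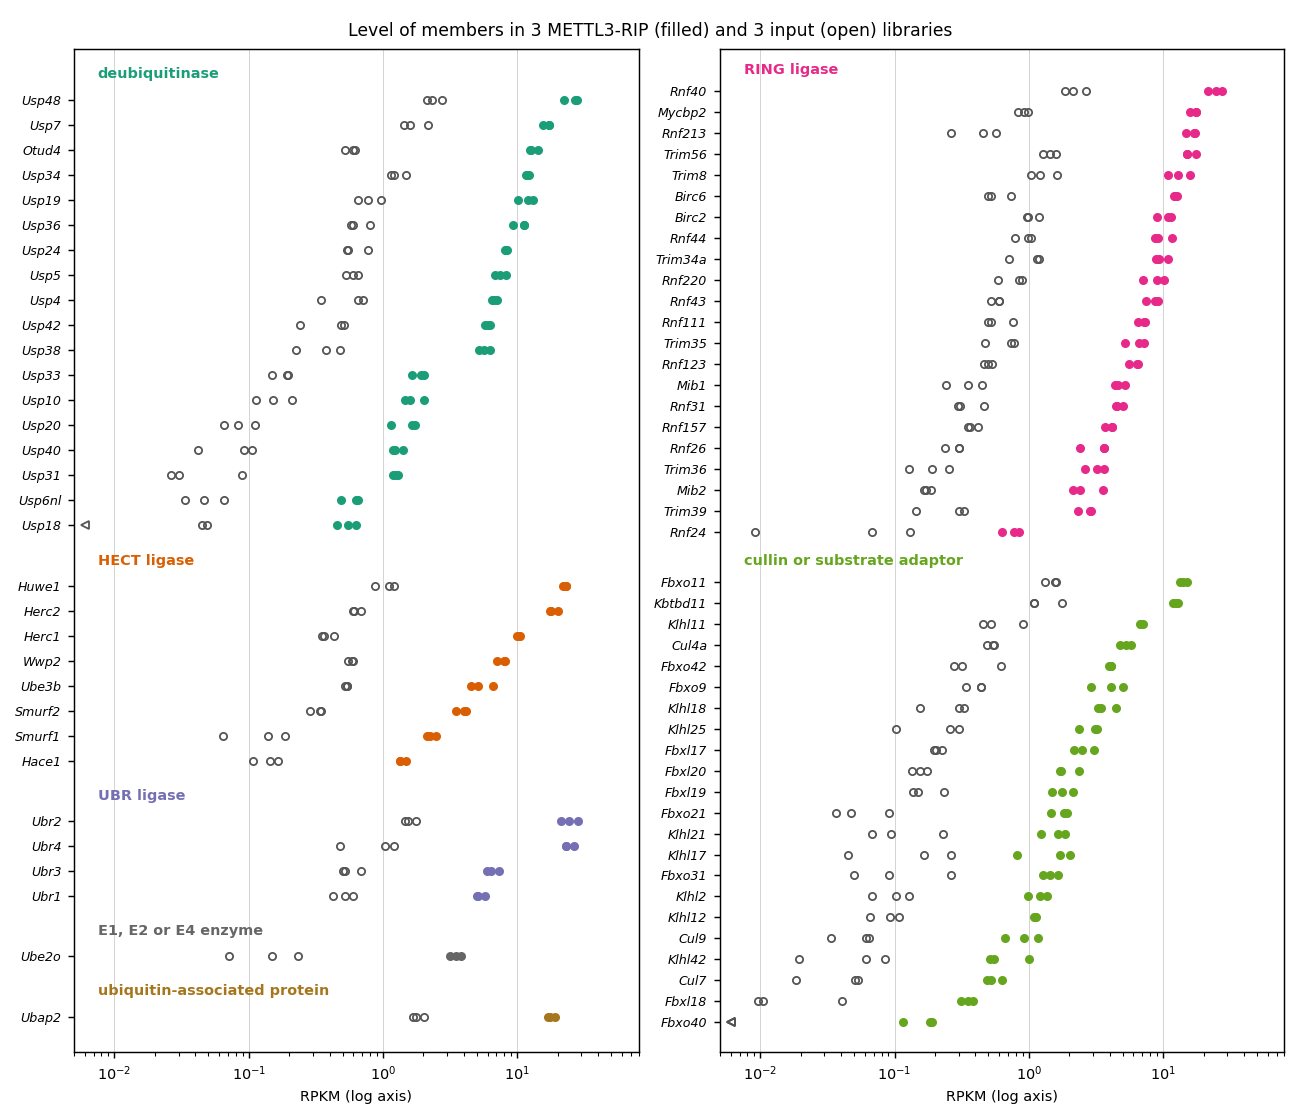
Level of 76 of the 78 members (rows, by class and level) in RPKM on a log axis, with filled points for 3 METTL3-RIP libraries and open points for 3 input libraries; a left-pointing triangle marks an input library at 0. Filled and open points do not overlap in any row, and cullins and adaptors reach the lowest levels, down to a mean of 0.163 RPKM in Fbxo40.

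The relation of the members to the rest of the table was read after 2 further scalings, which set each library to a common level and so show differences relative to other listed genes. After centring each library on its median, which removes a shift of 1.76 between the groups, 43 members were relatively higher and 23 relatively lower (limma, adjusted p under 0.05), against 39.4% and 42.2% of the table. After quantile normalization, 6 members were relatively higher and 4 relatively lower, against 6.41% and 5.73% of the table. Among the 6 were Herc1 (0.53 on the log2 scale), Herc2 (0.72), Huwe1 (0.45), Rnf213 (0.95) and Ubr4 (0.76), and the 4 were Cul4a (-0.30), Fbxo11 (-0.45), Usp34 (-0.45) and Usp7 (-0.41), with Herc1 and Cul4a named after their values were seen. All 6 genes were also relatively higher after centring, and so were the 4 that quantile normalization placed lower, so the direction of Cul4a, Fbxo11, Usp34 and Usp7 flipped between these scalings. The quantile counts were near the background. After centring, more members were higher and fewer were lower than in the table, and no test of this was made. Both scalings were made on log2(RPKM + 1), which understates the change of genes with low levels. Before them, 50 of 78 members lay above the table's median difference on that scale, but only 24 did in limma-voom. The counts after centring thus do not show that members were higher relative to the table.

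The size of the encoded protein went with level and ratio among the members. Of the 8 members with a protein of at least 3000 residues (Rnf213, Ubr4, Birc6, Herc1, Herc2, Mycbp2, Huwe1 and Usp34, with the limit chosen after values were seen), all lay above the members' median level and 7 lay above their median ratio. They held 44.5% of the reads of members in METTL3-RIP libraries. Their median ratio was 24.0, against 12.1 in the 69 members with shorter proteins, of which Fbxo40 has no ratio and is left out of the median. In other listed genes the median was 17.7 for 58 genes with proteins of this size and 13.1 for shorter ones. Usp34 was the exception among the large members, with the smallest ratio. Across members, Spearman's rho of protein length with the ratio was 0.45 (76 genes) and with the METTL3-RIP level 0.47 (77 genes). In other listed genes these values were 0.17 (1751 genes) and 0.26 (1804 genes). Genes in such a correlation share libraries and the exon lengths that enter RPKM, and they are not independent replicates, so these are descriptions without a test. Each of the 8 large members had at least 335 input reads, while the ratios of short members such as Rnf24 rest on few.

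**Figure D4:**
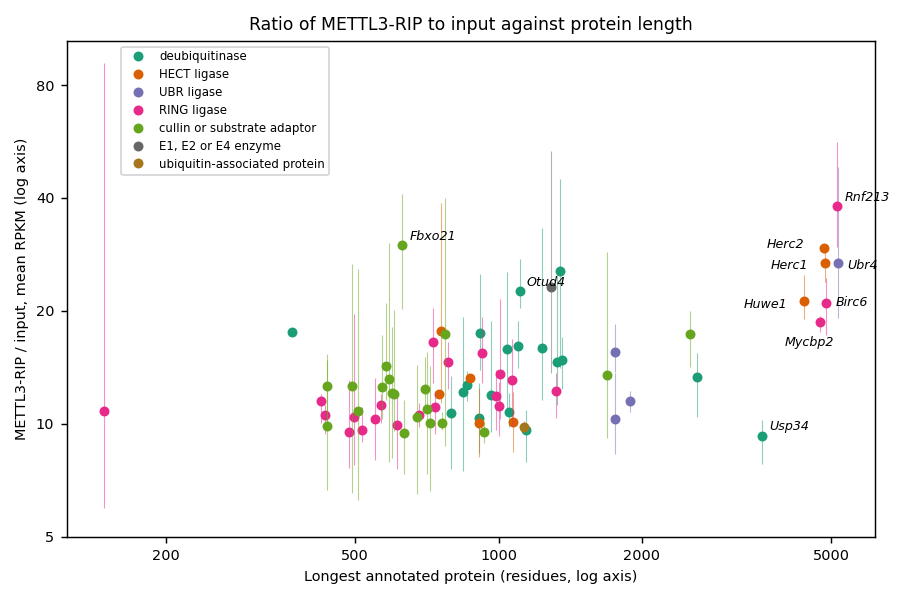
Ratio of mean METTL3-RIP to mean input RPKM (log axis) against the length of the longest annotated protein (residues, log axis), for 74 members, with colours for classes. Thin lines span the ratios within the 3 same-numbered pairs where no input library is at 0, and 7 of 8 proteins with at least 3000 residues lie above the members' median ratio of 12.3, Usp34 being the exception at 9.28.

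Which genes of the rule were listed at all went with the length of the gene. In GENCODE M21, 442 protein-coding genes match the naming rule, and 77 of them (17.4%) were listed, against 1826 of 21452 other protein-coding genes (8.51%). The remaining member, Klhl17, had no single matching entry. In the class of the longest exon sets, 6516 nt and more, 45 of 136 genes of the rule (33.1%) and 23.1% of other genes were listed. In the next class, from 4270 to 6514 nt, 24 of 108 (22.2%) and 11.8% were listed, and in the class of the shortest genes 0 of 30 and 1.10%. By family, listing ran from 5 of 6 Ubr genes, 9 of 22 HECT ligases and 17 of 56 Usp genes to 6 of 68 Trim genes, 11 of 85 Rnf genes, 1 of 37 Ube2 genes, 0 of 23 Fbxw genes and 0 of 14 Dcaf genes. Both Mib genes and both Smurf genes were listed. Because the authors' criteria and any minimum on level enter these shares, they are given with no test.

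**Figure D5:**
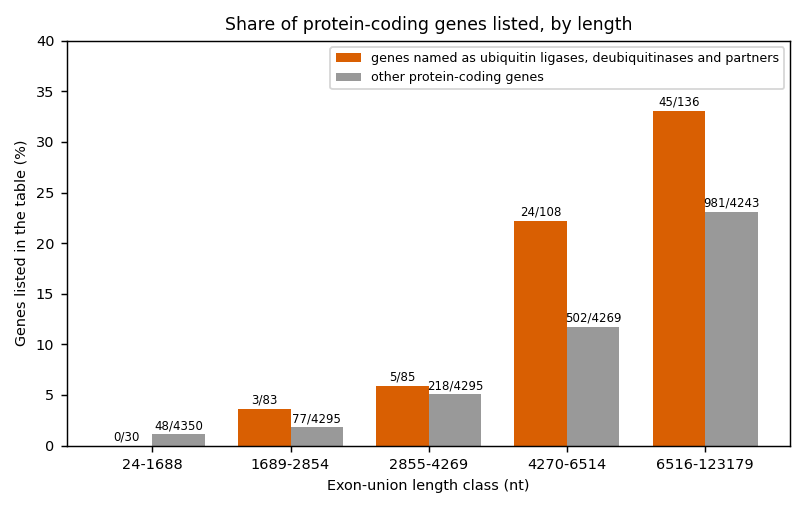
Share of protein-coding genes listed in the table (vertical axis, percent) in 5 classes of exon-union length (horizontal axis, nt), for genes matching the naming rule and for other genes, with listed and total numbers over the bars. The share is 33.1% against 23.1% in the longest class and 22.2% against 11.8% in the next, and both are under 6% in the 3 shortest classes.

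Related members were compared within libraries by the ratio of their levels. Ubr2 stood to Ubr1 as 4.75, 4.92 and 4.23 in METTL3-RIP and as 3.38, 3.64 and 2.42 in input, so that the groups did not overlap (exact permutation test, two-sided, p = 0.1, the smallest p that 3 libraries against 3 allow, and 0.4 after adjustment over 4 pairs). For Herc2 and Herc1 the geometric means of the ratio were 1.81 in METTL3-RIP and 1.65 in input (exact permutation p = 0.5), for Mib1 and Mib2 1.79 and 1.93 (p = 0.8), and for Smurf2 and Smurf1 1.70 and 2.73 (p = 0.3). These groups overlapped. The exact test cannot pass 0.05 with 3 libraries against 3, so the p-values do not show that the ratios were alike.

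Outside the naming rule, 10 of 149 other genes of the ubiquitin and proteasome system were listed, against 8.51% of protein-coding genes outside the rule. All 10 passed the threshold in the limma fit, as did 99.9% of the table, and their median log2 difference was 1.82 against 1.72 in the table. Tnfaip3 (A20), an ubiquitin-editing brake on NF-kB, had the highest level, with 78.7, 89.5 and 67.4 RPKM in METTL3-RIP against 7.43, 8.61 and 7.02 RPKM in input. Traf3, which acts with Birc2 on the kinase NIK, had 4.08, 4.80 and 3.78 RPKM against 0.214, 0.391 and 0.518 RPKM, and Ddb1, the adaptor of Cul4a, had 31.5, 29.1 and 27.9 RPKM against 3.89, 3.13 and 1.69 RPKM. The others were Cbl, Rc3h2, Siah1a, Znrf3, Dtx3, Uba6 and Uba7, so that ligases and E1 enzymes were present. Of 41 proteasome subunits, 9 subunits of the COP9 signalosome, 10 MARCH ligases and 13 genes of the SUMO pathway, 0 were listed. Proteasome subunits have a median exon length of 2820 nt, and in the class from 1689 to 2854 nt 1.79% of genes outside the rule were listed. The median was 3549 nt for the COP9 signalosome, 3918 nt for the SUMO pathway and 6001.5 nt for the MARCH ligases. Whether length has a part in these absences was not tested.

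Some members share sequence with other genes, and their values are uncertain. Of the distinct 31-base stretches in all annotated transcripts of a gene, 72.5% in Rnf26 and 68.5% in Trim34a also occur, on either strand, in transcripts of other genes, in Trim34a also its close copy Trim34b, and 4 more members (Kbtbd11, Usp33, Usp38 and Klhl21) exceed 20%. In 12 members more than 5% of exon length overlaps another gene, and whether strand was used in counting is not given in the sources used here. For 13 members the exon length behind the deposited values had to be inferred. It bears on their recovered read numbers, and their levels could differ at the annotated length. Ratios of levels do not depend on it.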

How the data were processed

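METTL3-RIP and input libraries (3 each) were grouped by their titles. The authors mapped reads to GRCm38 with STAR 2.5.3a after trimming, for which their processing notes name Trimmomatic 0.36. The counter, the annotation and the use of strand are not given in the sources used here. They deposited 1 gene table, whose per-library values were inferred, from the values, to be RPKM. The authors' log2 fold change and p-value columns were deposited in the same table and were not used. The table lists genes that its authors found higher in METTL3-RIP, and other genes were not analysed here.

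Reads and library totals were recovered from the deposited RPKM with exon-union lengths of GENCODE M21. A value within 0.01 of a whole read counted as whole. Of 2551 genes with a single GENCODE entry, 2144 gave whole reads in every library, and for 508 genes the length was inferred.

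RPKM values were transformed to log2(RPKM + 1) and compared with limma 3.58.1 in R 4.3.3 (lmFit, eBayes with a trend, two-sided, no filter, Benjamini-Hochberg over all 2652 genes, threshold 0.05), which was tested on simulated data. Alternatives were pseudocounts of 0.1 and 5, a minimum mean of 1 RPKM, median centring, quantile normalization, a replicate block, leaving out each library, and limma-voom on recovered reads. Input and immunoprecipitate are described as parts of a lysate, and same-numbered libraries were taken as pairs. Their deviations from the group means correlated at -0.02, -0.02 and 0.08 over all genes.

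Members and lists were chosen with earlier results of these data known. Named with values in every library were the 3 highest and the lowest member of each class by mean METTL3-RIP RPKM, the 3 largest and 3 smallest ratios among members with at least 50 input reads, and 21 signalling genes where listed, 26 members in all, of which 2 are not reported here. Motifs were searched on the sense strand of the longest coding transcript. Intervals and limits from reads cover counting error only.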

Additional observations from a re-analysis of the deposited data

How the results depend on the processing

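The 78 members stayed past the threshold under pseudocounts of 0.1 and 5, with the replicate block, in limma-voom and without any 1 library, and the 58 with a mean of at least 1 RPKM did so under that minimum. Of the 2652 genes of the table, 2652 passed with a pseudocount of 0.1, 2645 with 5 and 2652 in limma-voom. The members' counts thus sit at the background and say nothing particular about them. The members' median log2 difference of 2.07 was 3.25 with a pseudocount of 0.1, 0.90 with 5, 2.41 under the minimum of 1 RPKM, 3.65 in limma-voom, 0.31 after median centring and -0.17 after quantile normalization. Without 1 library it ran from 2.02 to 2.13. Genes past the threshold in the whole table, 2650 with the settings of the report, numbered 1671 under the minimum of 1 RPKM, where fewer genes are tested, and 322 after quantile normalization, when 10 members passed. They ranged from 2629 to 2644 without 1 library. With the replicate block, 78 members and 2643 genes passed, and the pairing changed no call of a member. Both centring and quantile normalization remove the shift that listed genes share, so they measure a difference relative to listed genes. Among the 26 named members, centring turned the direction of Fbxo40 (-1.54), Hace1 (-0.69), Rnf24 (-1.05) and Usp18 (-1.18). Quantile normalization turned that of 15, namely Birc2 (-0.40), Fbxo11 (-0.45), Fbxo40 (-0.14), Hace1 (-0.30), Kbtbd11 (-0.43), Klhl11 (-0.21), Rnf24 (-0.27), Rnf31 (-0.10), Rnf40 (-0.24), Ubap2 (-0.38), Ubr1 (-0.30), Usp18 (-0.17), Usp34 (-0.45), Usp48 (-0.35) and Usp7 (-0.41). Ratios with few input reads moved by over 1.5 times without 1 library: without input replicate 1, Fbxl18 went from 17.3 to 34.8, Fbxo31 from 10.8 to 20.7, Klhl21 from 12.1 to 19.5 and Usp31 from 25.6 to 43.9, and without input replicate 3, Rnf24 went from 10.8 to 19.4. The median member had 122.5 input reads over 3 libraries against 941.5 in METTL3-RIP, although the input libraries held more reads in all, and input read numbers limit the precision of the ratios.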
